A study of Caenorhabditis elegans with 6 samples.

Results

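The mRNA of adult Caenorhabditis elegans fed RNAi bacteria with an empty vector was described gene by gene and family by family. These are the worms that the study left without gene knockdown: 2 of its 6 libraries, taken by the label of the bacteria fed and not by any measured value. All 6 came from whole worms of the strain CF512, whose eggs were kept at 25 °C for 48 h on the RNAi plates so that the adults would be sterile, and which were collected at day 1 of adulthood. The other 4 libraries were 2 of worms fed RNAi toward daf-2 and 2 of worms fed RNAi toward cav-1, and no comparison with them is made here. The experiment was run as 2 biological repeats, and each repeat gave 1 empty vector library. The labels name the strain without its alleles. As background, CF512 carries temperature-sensitive lesions in fem-1 and rrf-3, and its hermaphrodites make no working sperm when raised warm, so that they hold oocytes that are not fertilised. Each library is a bulk sample of many worms, so fewer cells of a type and less RNA per cell cannot be told apart.

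A young adult hermaphrodite is a body of fixed cell number that carries a large germ line. Its intestine makes yolk and exports it to the oocytes. The oocytes in turn are loaded with RNA-binding proteins, eggshell parts and stored mRNAs that the embryo would use. The cuticle collagens of the adult are made by the hypodermis, and sperm, where they are made, come from an earlier phase of the same gonad.

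Poly(A) RNA from 1 µg of RNA went into each stranded library. The libraries held 25474328 (repeat 1) and 29462916 (repeat 2) counts, with at least 1 count in 18067 and 17618 of the 46254 genes that had a value. Levels are given as counts per 1000000 counts of the library (CPM). They are also given as transcripts per 1000000 (TPM), where each count was divided by the length of the gene's longest annotated transcript. Levels of different genes are set side by side on that scale. It does not remove the gap between the repeats that ran with transcript length, so TPM orders of short and long genes can differ between the libraries. Orders given in CPM are orders of counts, not of transcript numbers. A count of 0 allows a level of up to 0.118 CPM in repeat 1 and 0.102 CPM in repeat 2, which covers counting error only. A gene was called detected at 1 CPM or more in both libraries. That was so for 10940 genes (23.7%), 10596 of them among the 19641 protein-coding genes (53.9%).

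The repeats did not agree closely, and this bears on every value below. Of 7751 genes that averaged at least 10 CPM, 4009 (51.7%) lay within 2-fold of each other in the 2 libraries. Another 1536 (19.8%) were at least 2-fold higher in repeat 2, and 2206 (28.5%) at least 2-fold higher in repeat 1. With gaps of any size, 3962 (51.1%) were higher in repeat 2, which is the share to set beside the class counts below. Across all 7751 genes the levels correlated with a Spearman coefficient of 0.677, given as a description since genes are not independent replicates. The ratio of repeat 2 to repeat 1 rose with the length of the transcript, as set out at the end. Values are therefore given for each library, and no gene is said to differ in level between repeats beyond its values, since 1 library per repeat allows no test.

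Counts were spread widely over genes. The most counted gene took 1.63% of the counts in repeat 1 and 2.66% in repeat 2, and the top 10 took 8.22% and 10.4%. It took 761 genes to reach 50% of the counts of repeat 1, 594 for repeat 2, and 4526 and 4107 genes to reach 90%. The 107 genes averaging at least 1000 CPM held 21.8% of the counts in repeat 1 and 24.8% in repeat 2. The largest share lay with genes of middle rank: 2384 genes of 100 to 1000 CPM held 52.7% and 51.4%. Of the 10 most counted genes of each library 4 were shared, and of the top 100, 56.

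**Figure D1:**
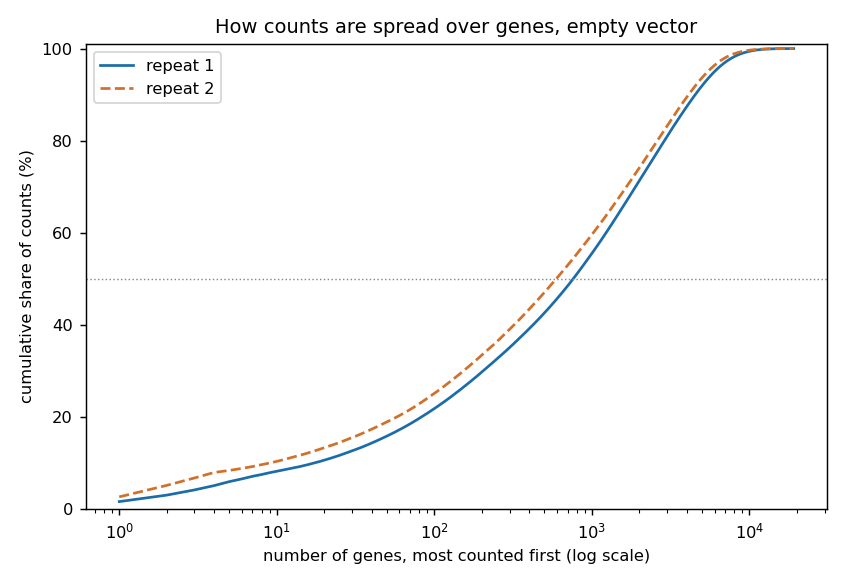
Cumulative share of counts (vertical axis, %) against the number of genes taken from the most counted down (horizontal axis, log scale) in the 2 empty vector libraries. The curve of repeat 2 lies above that of repeat 1 and crosses the dotted 50% line at 594 genes, against 761 genes in repeat 1.

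Gene names were sorted into 40 classes of known function, which together hold 5827 genes and took 43.6% of the counts in repeat 1 and 48.8% in repeat 2. The largest in both libraries were the cytosolic ribosomal proteins and then the vitellogenins. Next came the genes of the mitochondrial genome and the collagens in repeat 1, but oocyte and eggshell genes and translation factors in repeat 2. Of the 107 genes above 1000 CPM, 37 encode ribosomal proteins, 10 collagens, 8 oocyte or eggshell proteins, 7 mitochondrially encoded proteins, 6 vitellogenins, 5 translation factors and 4 chaperones, while 11 fell in no class. Counting error is small at this scale. The widest 95% Wilson interval of any class share reached 0.0193 percentage points to either side.

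**Figure D2:**
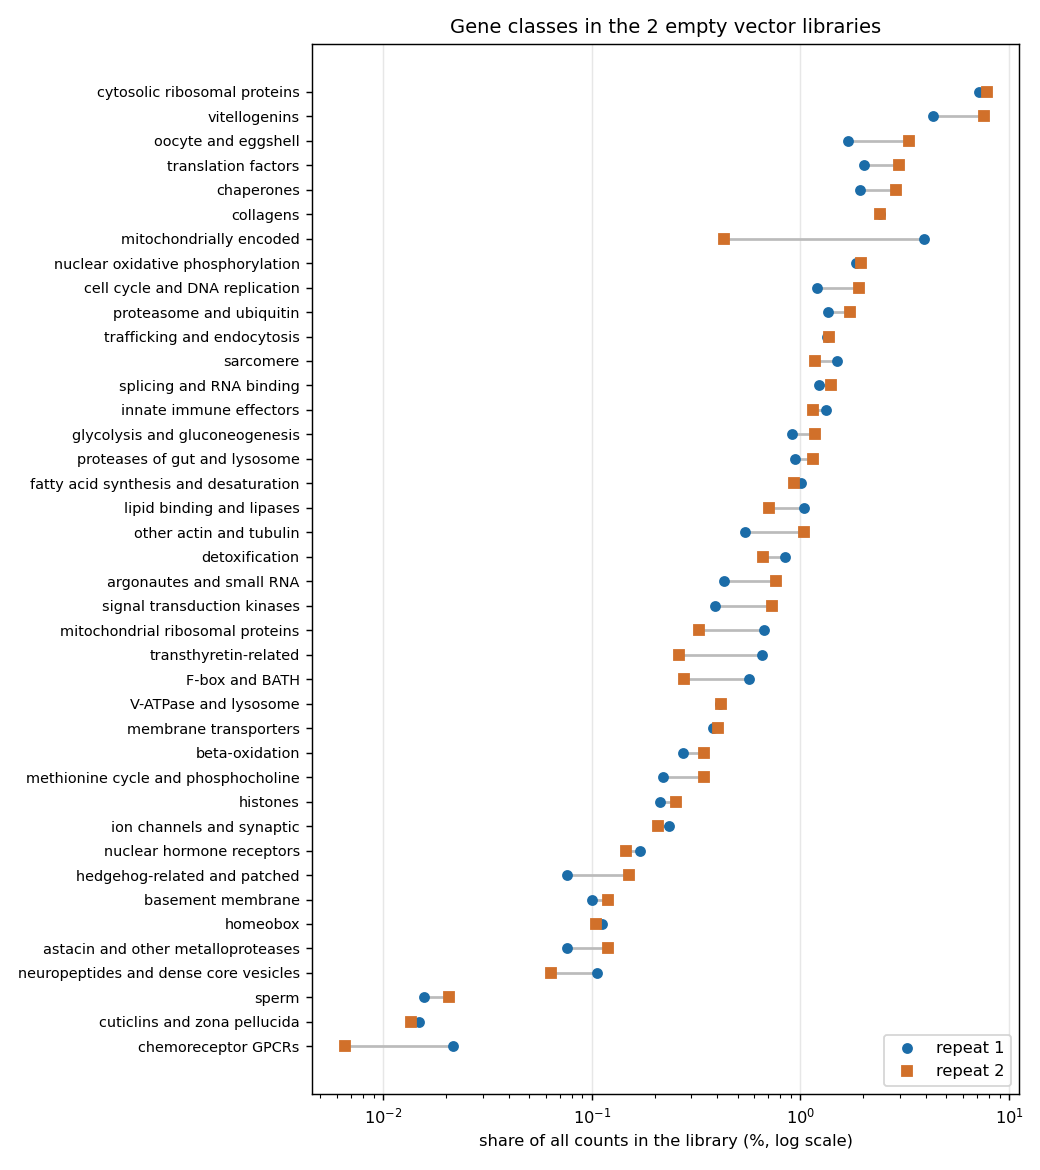
Share of all counts (horizontal axis, %, log scale) taken by each of the 40 gene classes (vertical axis) in repeat 1 (blue circles) and repeat 2 (orange squares), with a grey line joining the 2 libraries. Ribosomal proteins (7.15% and 7.83%) and collagens (2.41% and 2.40%) lie nearly at the same place in both libraries, while the mitochondrially encoded genes took 3.90% in repeat 1 and 0.432% in repeat 2.

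Yolk genes supplied the most counted messages. The 6 vitellogenins took 4.31% of the counts of repeat 1 and 7.55% of those of repeat 2, 5.93% ± 2.29 on average (SD, n = 2). vit-2, encoding a yolk protein, stood at 16277 CPM in repeat 1 and 24923 CPM in repeat 2. vit-6, whose product is cleaved into the smaller yolk proteins, stood at 14077 and 26573 CPM, and vit-5 at 9372 and 16072 CPM. Averaged over both libraries these 3 genes led the list, with vit-2 first in repeat 1 and vit-6 first in repeat 2. vit-2 lies on chromosome X at 5101042 to 5106169 (plus strand) and vit-6 on chromosome IV at 8261157 to 8266459 (plus strand) in WBcel235.

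The remaining yolk genes, of like length, had fewer counts. vit-3 had 1477 and 2989 CPM, vit-4 1153 and 2669 CPM, and vit-1 780.1 and 2250 CPM in repeats 1 and 2. vit-3, vit-4 and vit-5 are close copies of each other, and how shared reads were counted is not given in the sources used here, so the split among them is uncertain. Every one of the 6 was higher in repeat 2, where 51.1% of the 7751 genes were. Yolk messages are long, 4870 to 5088 nt, and per length they took less: 0.886% of all TPM in repeat 1 and 2.01% in repeat 2. On that scale vit-2 stood at 3363 and 6692 TPM. The yolk receptor of the oocyte, rme-2, was at 449.5 and 1507 CPM.

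Ribosomal proteins were the largest class by counts and per length. Of the 82 genes for cytosolic ribosomal proteins 81 were detected, and 79 averaged over 100 CPM. Together they took 7.15% of counts in repeat 1 and 7.83% in repeat 2, and per length 14.2% and 17.7% of TPM. Their detected messages have a median of 520 nt. The 50 genes of the large subunit, stalk proteins included, took 4.22% and 4.62% of counts, and the 31 of the small subunit 2.87% and 3.13%. On average rla-0, the stalk protein P0, was the most counted at 1711 and 2800 CPM. In repeat 1 the most counted was F54D7.7, now named rpl-41.2, with 2598 CPM, against 819.5 CPM in repeat 2.

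Ribosomal protein genes with longer messages had a higher median ratio than those with shorter ones. The 45 whose message exceeds 500 nt had a median log2 ratio of repeat 2 to repeat 1 of 0.44. Of these 45, 42 were higher in repeat 2, where 51.1% of all 7751 genes were. The 35 shorter ones had a median of -0.07, with 15 of 35 higher in repeat 2. The short members were not alike. rpl-29, of 240 nt, had 1614 CPM in repeat 1 and 432.8 CPM in repeat 2. rpl-39 had 1332 and 417.5 CPM. rps-29, of 265 nt, had a log2 ratio of 0.08 and rps-21, of 306 nt, one of 0.29. Per length the highest member on average was F54D7.7 at 9457 and 3877 TPM. The member that was not detected, rpl-42, had 1 count in repeat 1 and 0 in repeat 2. rpl-37 was low at 4.20 and 1.93 CPM.

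Elongation factors stood beside the yolk genes. eef-1A.1, which brings aminoacyl-tRNA to the ribosome (chromosome III, 6970026 to 6971712, minus strand), had 5947 CPM in repeat 1 and 11998 CPM in repeat 2. Averaged over the libraries it was the highest of the genes per length, at 3944 and 10341 TPM. eef-2, the translocase, had 2686 and 4448 CPM, and pab-1, a poly(A)-binding protein, 1415 and 2054 CPM. iff-1, an eIF5A gene of the germ line, ran the other way with 1380 CPM in repeat 1 and 639.7 CPM in repeat 2. All 44 genes of the class were detected. The 70 mitochondrial ribosomal protein genes, also all detected, took 0.672% and 0.327% of counts. Their median log2 ratio was -1.11, against 0.04 over all 7751 genes. Of the 70, 17 were higher in repeat 2, where 51.1% of the 7751 genes were.

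Messages of the mitochondrial genome stood far apart in the 2 repeats, with a median log2 ratio of -2.95. The 12 protein-coding genes took 3.90% of counts in repeat 1 and 0.432% in repeat 2, and each was lower in repeat 2. ctc-1, subunit I of cytochrome c oxidase, had 11292 CPM in repeat 1, where it ranked beside the yolk genes, and 864.7 CPM in repeat 2. ctc-3, subunit III, had 8664 and 785.7 CPM, and ctc-2, subunit II, 3924 and 212.7 CPM, a log2 ratio of -4.20. ctb-1, cytochrome b, had 5490 and 541.8 CPM. The smallest gap was at nduo-2, a complex I subunit, with 185.0 and 100.2 CPM. The mitochondrial ribosomal and transfer RNA genes had no count in either library, and whether reads on them were counted is not given.

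The nuclear genes of the respiratory chain took nearly equal shares, 1.85% in repeat 1 and 1.96% in repeat 2. Of 73, 71 were detected. ant-1.1, the ADP/ATP carrier of the inner membrane, led at 2484 and 3512 CPM, followed by atp-2, the beta subunit of ATP synthase, at 1260 and 2303 CPM. The alpha subunit, listed as H28O16.1 and now named atp-1, had 1191 and 1924 CPM. cyc-2.1, cytochrome c, was close in both at 518.1 and 534.8 CPM. The median log2 ratio of the class was -0.15, and it turned to 0.19 when libraries were scaled by TMM factors.

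**Figure D3:**
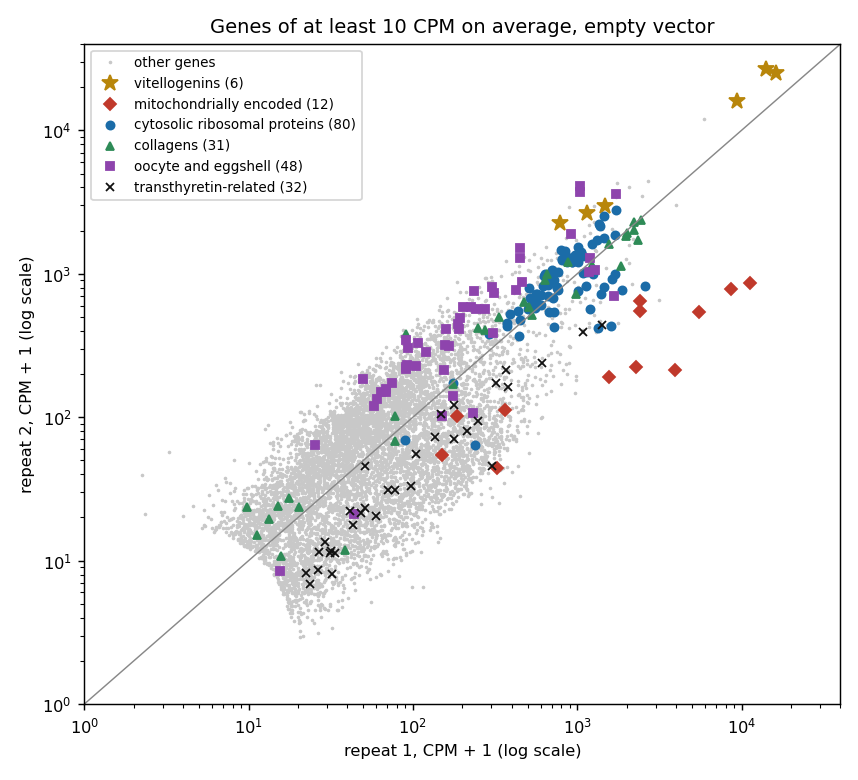
CPM + 1 in repeat 1 (horizontal axis, log scale) against repeat 2 (vertical axis, log scale) for the 7751 genes averaging at least 10 CPM, with 6 classes marked and the line of equal levels in grey. Vitellogenins and most oocyte genes lie above the line, collagens near it, and the 12 mitochondrially encoded and 32 transthyretin-related genes below it.

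Oocyte genes were high, and sperm genes had few counts. The oocyte and eggshell class took 1.698% of counts in repeat 1 and 3.303% in repeat 2, with 49 of 54 genes detected and 43 averaging over 100 CPM. Several of its members make the eggshell. cbd-1, a chitin-binding protein of the eggshell, had 1035 CPM in repeat 1 and 4078 CPM in repeat 2. cpg-2 and cpg-1, chondroitin proteoglycans of the shell, had 1722 and 3594 CPM and 1045 and 3709 CPM. Each of these 3 was at least 2-fold higher in repeat 2. perm-2 and perm-4, also eggshell genes, were nearer to equal, with 1288 and 1062 CPM and 1203 and 1290 CPM. chs-1, the chitin synthase, had 234.8 and 761.3 CPM, and egg-1, an oocyte surface protein needed for fertilisation, 302.6 and 802.8 CPM.

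RNA-binding proteins that control maternal mRNAs were the other large group. puf-5 had 447.4 CPM in repeat 1 and 1278 CPM in repeat 2. oma-1 and oma-2, needed for oocyte maturation, had 119.9 and 284.2 CPM and 224.9 and 585.4 CPM. spn-4 stood at 422.2 and 774.6 CPM, and pos-1 at 458.9 and 872.5 CPM. Every gene of this group named so far was higher in repeat 2. The Y-box proteins parted: cey-2 had 914.3 and 1893 CPM, while cey-3 had 1664 CPM in repeat 1 and 696.3 CPM in repeat 2. Of the 48 members averaging at least 10 CPM, 40 were higher in repeat 2, where 51.1% of all 7751 genes were. Their median log2 ratio was 1.20. The detected members have a median transcript of 1876 nt, against 1052 nt for the collagens.

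The germ line proper was also present. gld-1, a repressor of translation in meiotic prophase, had 274.3 CPM in repeat 1 and 564.3 CPM in repeat 2, and the P granule helicase glh-1 155.7 and 316.9 CPM. glp-1, the Notch receptor that keeps germ cells in mitosis, had 92.1 and 300.6 CPM. Meiotic chromosome genes did not move together: htp-3 had 66.2 and 165.5 CPM, whereas syp-2, a protein of the synaptonemal complex, had 241.3 and 60.1 CPM. Cell cycle and DNA replication genes took 1.20% and 1.90% of counts, with 90 of 94 detected. rnr-2, the small subunit of ribonucleotide reductase, had 960.9 and 877.1 CPM, and cyb-3, a B-type cyclin, 500.6 and 1064 CPM. Both fog genes of the germline list act in sperm fate: fog-1 had 22.8 and 36.05 CPM and fog-3 0.157 and 0.102 CPM, so 12 of the 13 germline markers were detected.

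Major sperm proteins, which drive the crawling of nematode sperm, were at the floor. The 35 msp genes together had 12 counts in repeat 1 and 10 counts in repeat 2, and 28 of them had no count in either. Many msp genes are close copies of each other, as are the spch genes named below. The treatment of reads they share is not given, so few counts need not mean low levels. Of 25 sperm markers measured 1 was detected, ssp-10, at 4.36 and 3.36 CPM, and 14 had no count. The sperm protamine-like genes spch-1, spch-2 and spch-3 were at 0 in both libraries, and gsp-4, a phosphatase of sperm, had 0.157 and 0.102 CPM. The wider sperm class of 113 genes held 11 detected ones. The highest were spe-39 at 38.3 and 72.1 CPM, which acts in vesicle transport in many tissues, and the gene listed as Y51F10.10, now named spe-48, at 29.2 and 36.7 CPM. spe-5, a subunit of the V-ATPase, and spe-15, a myosin VI, are also not sperm genes alone. They had 21.5 and 20.0 CPM and 9.19 and 20.9 CPM. Of 7 male markers 0 were detected, with 17 and 25 counts in all.

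Genes switched on in embryos were low where measured. Of 12 early embryo markers 5 were detected, and their summed level was 50.6 CPM in repeat 1 and 38.8 CPM in repeat 2. sdz-28 was the highest on average at 23.9 and 9.03 CPM. The endoderm and mesoderm genes end-1, med-1 and med-2 stayed below 1 CPM in both libraries, and end-3 had 2.198 and 0.170 CPM. For scale, the 15 oocyte markers summed to 9310 and 21399 CPM. Several embryo markers are also expressed in adult tissue, such as elt-1 in the hypodermis, at 5.10 and 8.25 CPM.

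**Figure D4:**
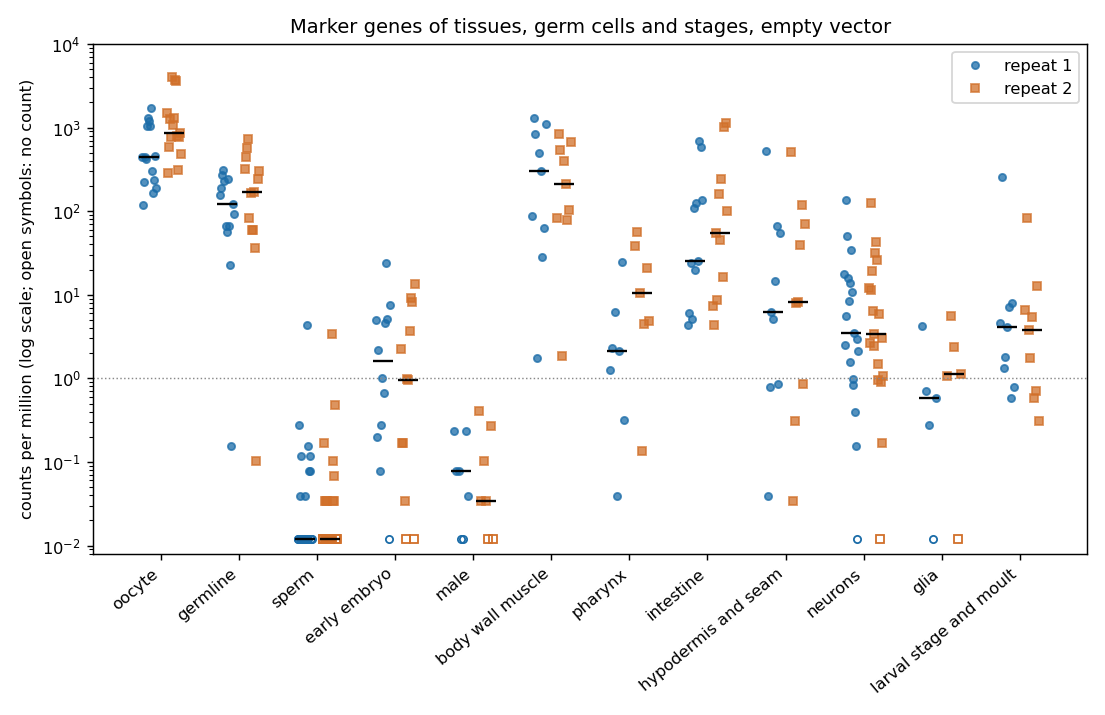
CPM (vertical axis, log scale) of the marker genes of 12 tissues, germ cell types and stages in repeat 1 (blue circles) and repeat 2 (orange squares), with black bars at the median of each list and the dotted line at 1 CPM, while open symbols at the foot are genes with no count. The 15 oocyte markers lie above 100 CPM, whereas sperm and male markers lie below 1 CPM apart from ssp-10 at 4.36 and 3.36 CPM.

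Few collagen genes carried the counts of the family, and its share was nearly equal in the repeats. The 180 cuticle collagen genes took 2.41% of counts in repeat 1 and 2.40% in repeat 2, while per length they took 2.44% and 3.15% of TPM. Only 57 of the 180 were detected and 14 had no count in either library. The 10 genes above 1000 CPM held most of the counts of the family. col-122 led at 2437 and 2370 CPM, with col-119 at 2202 and 2312 CPM, col-140 at 2226 and 2031 CPM and col-95 at 2358 and 1716 CPM. Their values lay close together in the 2 libraries.

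The collagens listed as stage markers did not all follow their labels. col-19, the standard marker of the adult cuticle, had 531.6 and 512.6 CPM. rol-6 and dpy-7, collagens made at larval moults, had 0.0393 and 0.0339 CPM and 0.785 and 0.305 CPM. col-7 and col-62, which had been listed beside col-19 as adult markers, were at 0.157 and 0.0679 CPM and 0.314 and 0.136 CPM, against that label. mlt-10, a gene of the moult, had 1.33 and 3.77 CPM. lin-28, which holds back larval cell fates and is also expressed in the germ line, had 254.6 and 83.4 CPM. The widest gap among collagens of at least 10 CPM was at col-93, with 90.4 and 379.4 CPM. Cuticlins and zona pellucida proteins of the outer matrix took 0.0149% and 0.0136% of counts.

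Muscle was represented by its thick and thin filaments. The sarcomere class took 1.504% of counts in repeat 1 and 1.17% in repeat 2, and 52 of 53 genes were detected. act-4 and act-2, both actins, had 1967 and 1275 CPM and 692.2 and 1252 CPM. unc-54, the main myosin heavy chain of the body wall, had 1306 and 830.4 CPM, lev-11, tropomyosin, 1113 and 672.9 CPM, and unc-15, paramyosin, 846.6 and 536.1 CPM. Of these, act-2 was higher in repeat 2 and the others were lower. Per length unc-54 was lower, at 214.7 and 177.3 TPM, than lev-11 at 739.0 and 580.4 TPM. The actin genes act-1 to act-4 are near-identical in sequence, so their split is uncertain. The class had a median log2 ratio of -0.27, which became 0.07 with TMM factors.

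The giant muscle genes unc-22 and unc-89 were higher in repeat 2, as were most genes with long transcripts. The 261 genes of over 5000 nt had a median log2 ratio of 1.56. unc-22, twitchin, whose longest transcript is 21601 nt, had 27.99 CPM in repeat 1 and 77.93 CPM in repeat 2. unc-89, of 24703 nt, had 62.7 and 102.9 CPM. Pharyngeal myosins had the widest gaps of the muscle genes named. myo-2 and myo-1, the myosin heavy chains of the pharynx, had 2.28 and 56.1 CPM and 1.26 and 38.6 CPM, log2 ratios of 4.12 and 4.13. tnt-4, a troponin T of the pharynx, had 0.314 and 4.82 CPM, but tni-4, a troponin I, had 24.8 and 20.7 CPM. Of 7 pharynx markers 5 were detected.

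Apart from yolk, the intestine was represented by digestive enzymes and gut structure. All 11 intestine markers measured were detected, and they summed to 1729 CPM in repeat 1 and 2775 CPM in repeat 2. The aspartyl proteases, lysosomal and gut enzymes of the cathepsin D type, took 0.587% and 0.708% of counts. asp-4 had 1638 and 933.6 CPM, asp-3 1031 and 1391 CPM and asp-6 811.1 and 1284 CPM. cpr-6, of the cathepsin B type, had 694.8 and 1017 CPM. asp-4 was lower in repeat 2 and the others named were higher. act-5, the actin of the brush border, had 108.8 and 160.3 CPM, and vha-6, a proton pump subunit of the gut lumen, 125.1 and 240.2 CPM. elt-2, the transcription factor that sets gut identity, was low at 4.40 and 7.43 CPM.

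Lipid metabolism was carried by binding proteins and desaturases. far-2, a secreted fatty acid and retinol binding protein, had 3980 and 3033 CPM and was among the highest genes per length, at 6630 and 6566 TPM. Its relatives far-3 and far-1 had 1382 and 470.1 CPM and 690.9 and 505.4 CPM. Of the desaturases, fat-2, which makes linoleic acid, had 2177 and 1761 CPM, fat-6, a stearoyl-CoA desaturase, 1494 and 1094 CPM, and fat-1, the omega-3 desaturase, 870.1 and 891.1 CPM. Of the enzymes that build fatty acids, pod-2, acetyl-CoA carboxylase, had 361.0 and 698.1 CPM, and fasn-1, fatty acid synthase, 47.2 and 164.1 CPM. Both were higher in repeat 2. The class of fatty acid synthesis and desaturation as a whole took 1.01% and 0.932% of counts. In it 18 of 30 genes averaging at least 10 CPM were higher in repeat 2 and 12 in repeat 1. Over all 7751 genes 51.1% were higher in repeat 2. Beta-oxidation genes took 0.274% and 0.345% of counts, with acdh-3, an acyl-CoA dehydrogenase, highest on average at 444.9 and 218.9 CPM.

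Central carbon metabolism lay at a middle level. Glycolysis and gluconeogenesis genes took 0.915% in repeat 1 and 1.18% in repeat 2, with 39 of 41 detected. aldo-2, an aldolase, had 749.0 and 1284 CPM, enol-1, enolase, 735.0 and 1092 CPM, and pck-2, phosphoenolpyruvate carboxykinase, 780.8 and 1183 CPM. icl-1, the enzyme of the glyoxylate shunt, had 793.2 and 972.1 CPM. All of these were higher in repeat 2. In the methionine cycle, ahcy-1, S-adenosylhomocysteine hydrolase, had 744.9 and 1387 CPM.

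Among chaperones the constitutive forms had the most counts. The class took 1.94% of counts in repeat 1 and 2.88% in repeat 2, and 85 of 93 genes were detected. daf-21, now named hsp-90 after its product, had 1735 and 4297 CPM, and hsp-1, the constitutive Hsp70, 1716 and 3457 CPM. sip-1, a small heat shock protein of oocytes and embryos, had 2065 and 4011 CPM, and 3290 and 8303 TPM per length. cyn-7, a cyclophilin, had 1622 and 2041 CPM. These 4 were higher in repeat 2. The class was mixed: 43 of its 81 genes averaging at least 10 CPM were higher in repeat 2 and 38 in repeat 1. Over all 7751 genes the share higher in repeat 2 was 51.1%. The median log2 ratio of the class was 0.04. In the organelles, hsp-4 and hsp-3, the BiP homologs of the endoplasmic reticulum, had 173.4 and 424.5 CPM and 311.1 and 616.5 CPM, and mitochondrial hsp-6 had 405.8 and 768.9 CPM.

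Inducible heat shock genes were lower, also per length: the inducible hsp-70 had 25.9 and 21.4 TPM and the constitutive hsp-1 843.7 and 2209 TPM. hsp-16.2 and hsp-16.41 had 80.4 and 17.2 CPM and 106.6 and 28.1 CPM, and the inducible hsp-70 52.2 and 33.2 CPM, each lower in repeat 2. hsp-16.1, hsp-16.48 and hsp-16.49 had no count, and hsp-16.11 had 1.61 and 0.0679 CPM. These small heat shock genes are near-identical copies of each other, and the treatment of reads they share is not given, so the values of single copies are uncertain. hsp-16.49 is named after its values were seen. The oxidative stress genes gst-4 and sod-3 had 98.5 and 45.6 CPM and 12.13 and 12.15 CPM.

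Protein turnover, splicing and trafficking genes were nearly all detected. Proteasome and ubiquitin genes (74 of 81) took 1.35% of counts in repeat 1 and 1.72% in repeat 2, splicing and RNA-binding genes (81 of 82) 1.23% and 1.402%, and trafficking genes (138 of 152) 1.34% and 1.38%. ubq-1, polyubiquitin, had 895.6 and 2920 CPM. cgh-1, an RNA helicase of germ granules, had 647.7 and 1544 CPM and its partner car-1 602.3 and 1292 CPM. chc-1, the clathrin heavy chain, had 202.2 and 599.6 CPM. The classes were mixed between the repeats: 41 of 72 turnover genes, 47 of 77 splicing genes and 81 of 135 trafficking genes averaging at least 10 CPM were higher in repeat 2. Over all 7751 genes that share was 51.1%. Among the class members lower in repeat 2, vps-24, an ESCRT subunit, had 509.3 and 92.6 CPM, and ubc-7, a ubiquitin-conjugating enzyme, 983.2 and 181.7 CPM. Tubulins took 0.296% and 0.680%, led by tbb-2 at 1097 and 2634 CPM.

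Small RNA genes were present at middle levels. Of 59, 54 were detected, taking 0.430% of counts in repeat 1 and 0.762% in repeat 2. wago-1 and hrde-1, argonautes of the germ line, had 369.2 and 1221 CPM and 300.3 and 885.5 CPM. prg-1, the PIWI protein, had 194.2 and 417.8 CPM. rde-1, the argonaute of feeding RNAi, had 177.2 and 90.9 CPM, and sid-1, the channel that takes up double-stranded RNA, 24.5 and 43.5 CPM. The germline argonautes were thus higher in repeat 2 and rde-1 lower. rrf-3 and fem-1, the genes altered in the strain, still gave 65.5 and 66.0 CPM and 38.8 and 64.9 CPM. The genes targeted in the other groups had 42.8 and 173.2 CPM for daf-2, the insulin receptor, and 178.4 and 169.7 CPM for cav-1, caveolin.

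Immune and detoxification families were large, but few members carried the counts. Innate immune effectors took 1.32% of counts in repeat 1 and 1.15% in repeat 2, and 140 of 399 genes were detected. Among 266 C-type lectins, proteins with a carbohydrate-binding type of domain, 70 were detected and 80 had no count. clec-87 had 981.0 and 1710 CPM, clec-63 918.5 and 1232 CPM and clec-88 965.3 and 435.5 CPM. The lectins did not share a direction between the repeats. spp-5, a saposin-like pore-forming protein, had 1182 and 424.2 CPM, and lys-1, a lysozyme, 765.6 and 609.7 CPM. The epidermal peptide gene nlp-29, induced by infection and wounding, had 88.5 and 16.9 CPM.

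Of 81 cytochrome P450 genes 45 were detected, of 67 UDP-glucuronosyltransferases 47, and of 47 glutathione S-transferases 27. prdx-2, a peroxiredoxin, led the detoxification class at 864.7 and 961.3 CPM. gst-1 had 496.4 and 324.7 CPM. mtl-1 and mtl-2, metallothioneins, had 432.6 and 166.0 CPM and 137.2 and 100.1 CPM. Transthyretin-related genes, short secreted proteins, took 0.654% and 0.261%, and none of the 32 that averaged at least 10 CPM was higher in repeat 2. Over all 7751 genes 51.1% were. ttr-51 had 1409 and 437.5 CPM. F-box, BATH and MATH genes took 0.564% and 0.276%, and their median log2 ratio was -1.65.

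Neuronal families made up little of the RNA. Of 1632 chemoreceptor genes, 1312 of them annotated as protein-coding, 7 were detected and 923 had no count in either library. The family took 0.0217% of counts in repeat 1 and 0.00653% in repeat 2. The highest, str-176, had 67.3 and 12.8 CPM. Of 19 neuronal markers 14 were detected. snb-1, synaptobrevin, had 137.4 and 125.3 CPM, rab-3 had 2.51 and 2.68 CPM, and tph-1, which makes serotonin in few neurons, had 0 and 0.170 CPM. The class of neuropeptide and dense core vesicle genes took 0.106% and 0.0634%. nlp-40, a peptide secreted from the intestine, was the most counted at 229.3 and 116.3 CPM. The FMRFamide-like peptide genes, of which 26 of 31 were detected, were led by flp-6 at 64.4 and 21.9 CPM. Insulin-like peptides were sparse, with 6 of 40 detected.

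Transcription factor families had many detected members of few counts. Of 289 nuclear hormone receptor genes 144 were detected, 44 averaged at least 10 CPM and 0 averaged 100 CPM. nhr-49, a regulator of fat metabolism, was highest on average at 78.3 and 102.6 CPM. Of 103 homeobox genes 48 were detected. pal-1, a caudal homolog whose message is stored in oocytes, was highest on average at 346.1 and 105.7 CPM. Among histones, htz-1, an H2A variant, had 413.0 and 476.3 CPM and his-72, an H3.3 gene, 292.7 and 324.0 CPM. Of 72 genes for core histones, 36 had no count. Most core histone messages lack a poly(A) tail, and the libraries were made from poly(A) RNA. Many core histone genes are also close copies of each other, and the treatment of shared reads is not given. The part of either in the missing counts was not tested. The linker histone hil-4 had 246.1 and 454.5 CPM.

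Noncoding RNA was a small share of these poly(A) libraries. Protein-coding genes held 98.9% of counts in repeat 1 and 99.3% in repeat 2, pseudogenes 0.404% and 0.296%, and ncRNA genes 0.469% and 0.152%. The 22 genes annotated as rRNA and the 633 as tRNA had no count, nor had the 129 snRNA and 346 snoRNA genes. Whether reads on these classes were counted at all is not given in the sources used here, so their levels are not known. The highest ncRNA was tts-1, known to bind ribosomes in long-lived worms, at 3128 and 653.7 CPM. The pseudogene F07H5.5, named after its values were seen, had 1124 and 815.0 CPM. Chromosome X gave 9.61% and 11.2% of counts, the least of the 6 nuclear chromosomes. It also had the fewest detected genes of them, 1489. As background, X is largely silent in the germ line, and the part of this in its share was not tested. Chromosome I gave the most in repeat 1 at 19.7%, and chromosome III in repeat 2 at 20.7%.

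Genes of no class held 56.4% of counts in repeat 1 and 51.2% in repeat 2, spread over 8426 detected genes. On average the highest were lea-1, tts-1 and F46H5.3. lea-1, which resembles plant proteins that protect against drying, had 1258 and 2968 CPM. rack-1, a scaffold on the small ribosomal subunit, had 1101 and 1822 CPM, and lgg-1, the Atg8 protein of autophagy, 1768 and 454.9 CPM. Genes known by sequence name only were also among them: F46H5.3 had 2071 and 1586 CPM, Y37E3.8 had 2058 and 1185 CPM and T22B7.7 had 2158 and 846.1 CPM. The 5 genes now called ule, for expression in the lumen of the uterus, were grouped after their values were seen and took 0.475% and 0.264% of counts. The highest on average, C08F11.11 (ule-4), had 1526 and 441.9 CPM.

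The gap between the repeats followed transcript length across the whole table. For 427 genes of up to 500 nt the median log2 ratio of repeat 2 to repeat 1 was -1.38. It was -1.13 for 1645 genes of 500 to 1000 nt, -0.31 for 1807 of 1000 to 1500 nt and 0.23 for 1396 of 1500 to 2000 nt. Above that it was 0.75 for 1377 genes of 2000 to 3000 nt, 1.19 for 806 of 3000 to 5000 nt and 1.56 for 261 longer ones. The order held at every step. Across 7719 genes the ratio and the length had a Spearman coefficient of 0.636, as a description. Weighted by counts, the mean transcript was 1635 nt in repeat 1 and 2246 nt in repeat 2.

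**Figure D5:**
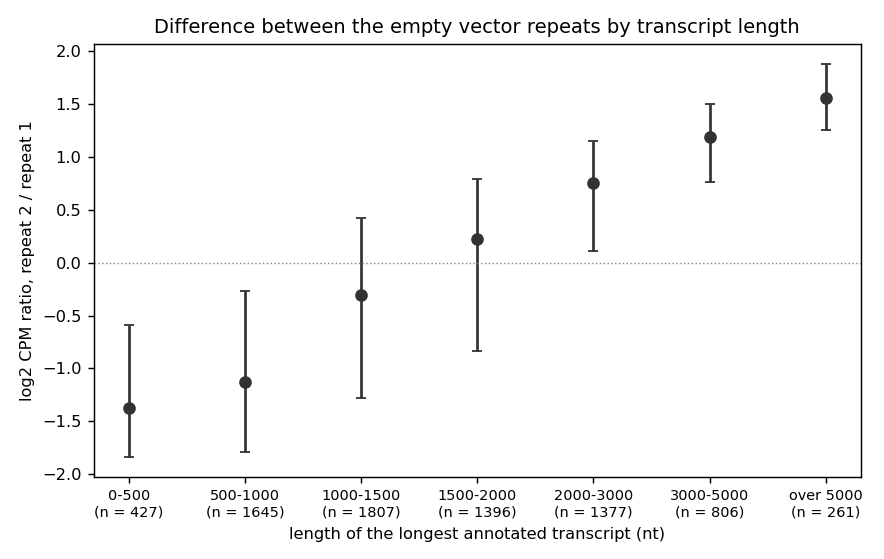
Log2 ratio of CPM in repeat 2 over repeat 1 (vertical axis) by length of the longest annotated transcript (horizontal axis, nt), with points at the median and bars from the lower to the upper quartile of genes averaging at least 10 CPM. The median climbs from -1.38 in the shortest bin to 1.56 in the longest.

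The part of length in any class difference was not tested. Among classes of short messages the ratios were not alike. Transthyretin-related genes, with a median of 576 nt, had a median log2 ratio of -1.32 and mitochondrial ribosomal proteins, at 755 nt, one of -1.11. Ribosomal proteins, with a median of 520 nt, had 0.31, and collagens, at 1052 nt, 0.22. The genes furthest apart among those averaging at least 50 CPM were, besides ctc-2, F43G9.13 at 113.5 and 5.57 CPM, the transporter gene F28B3.5 (mfsd-13.1) at 446.5 and 27.4 CPM and the noncoding RNA rncs-1 at 97.5 and 5.60 CPM. trt-1, the telomerase reverse transcriptase, had 332.5 and 24.3 CPM, and spo-11, which makes the breaks that start meiotic recombination, 303.6 and 26.8 CPM. In the other direction stood spat-3 at 24.7 and 166.5 CPM, sax-2 at 35.3 and 206.6 CPM and nmy-2, the nonmuscle myosin of embryonic polarity, at 185.8 and 877.3 CPM.

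Genes often used to normalise such samples varied with the rest. cdc-42 had 116.5 and 113.0 CPM and snb-1, noted above, was also close. ama-1, the large subunit of RNA polymerase II, had 131.7 and 291.7 CPM, pmp-3 28.3 and 67.1 CPM, and Y45F10D.4 (iscu-1) 208.1 and 81.8 CPM. tba-1, a tubulin, had 509.9 and 1256 CPM and rpl-32 1011 and 754.8 CPM. Of the 12 measured, 6 were higher in repeat 2 and 6 in repeat 1.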

How the data were processed

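Polyadenylated RNA of whole worms was measured in 2 empty vector libraries. The deposited table held whole-number read counts per gene, per the file headers raw counts by library, with 494 of 46748 genes (1.06%) marked as without value and left out. Against build WBcel235 the authors worked with DESeq2 1.10.1, Cufflinks 2.2.1, TopHat2 2.0.13, cutadapt 1.7.1 and bcl2fastq 2.15.0.4, per the submitters' processing notes. Which tool counted reads, with what annotation, strand mode and treatment of shared reads, is not given in the sources used here, so antisense and overlapping genes cannot be told apart from their partners. The 6 further per-library columns, the authors' normalised counts, were not used.

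Counts were divided by the library total and multiplied by 1000000 (CPM). TPM used the longest transcript of Ensembl release 115 (WBcel235), matched for 45955 genes. The 299 without a match held 0.119% and 0.169% of counts. Where a symbol was missing, or had become a date (5 genes), the gene identifier gave the name. Repeat ratios are log2 of CPM plus a pseudocount of 1, for genes averaging at least 10 CPM. With 2 libraries of 1 group no test was run. The libraries were checked and are not identical. Calculations used python 3.11.15, numpy 2.4.6, pandas 2.3.3, scipy 1.17.1 and matplotlib 3.10.9, and the composition steps were tested on simulated data.

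The genes named are the 30 highest by CPM and by TPM, up to 6 per class and members with no count, the listed markers, the 10 most different each way among genes averaging at least 50 CPM, and the most different of each class. Other genes, namely single members of ribosomal, collagen, oocyte and noncoding groups, and subfamily totals, were chosen after their values were seen. Classes, marker lists and members were chosen with earlier results of these data known. Numbers of genes in a class or family include entries not annotated as protein-coding. Some names that a class pattern had caught wrongly were moved after the counts were read. Alternatives tried were other detection thresholds, pseudocount, minimum level, TMM factors, nuclear genes only, summed exon length, summed counts and each library alone.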

Additional observations from a re-analysis of the deposited data

How the results depend on the processing

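No paired analysis was possible because the result comes from no test and no groups are compared. The values given next moved from the main ones, and the cause was not tested except where the alternative's own construction gives it. Per transcript length the share of vitellogenins became 1.45% (5.93% of counts), that of ribosomal proteins 15.97% (7.49%) and that of collagens 2.80% (2.40%). Among nuclear genes only, collagens took 2.46%, since the total is smaller. With 1 count in both libraries as the limit, 16595 genes were detected. TMM factors of 1.13 and 0.886 moved log2 ratios by up to 0.35 toward repeat 2. They gave 2420 genes at least 2-fold higher in repeat 2, against 1536. In repeat 1 the number was 1640, against 2206. The larger count thus lay with repeat 2 under TMM factors and with repeat 1 without them. The share of 51.1% set beside the class counts was also taken from CPM without these factors. At a mean of 50 CPM fewer genes are counted, and 1226 were at least 2-fold higher in repeat 1, against 2206. With each library left out in turn, vitellogenins ranged from 4.31% to 7.55%, ribosomal proteins from 7.15% to 7.83%, mitochondrially encoded genes from 0.432% to 3.90%, collagens from 2.40% to 2.41%, oocyte and eggshell genes from 1.698% to 3.303%, sperm genes from 0.0157% to 0.0206%, and detected genes from 11231 to 12116. Either of 2 libraries lies within 1 SD of their mean by construction, so these ranges show the distance between the repeats and nothing about stability. Depth limits only genes near the floor of 3 counts.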
